A study of Mus musculus with 12 samples.

Results

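The genes described here encode the proteins of the cytosolic ribosome. They were chosen by symbol alone: every row of the deposited expression table named Rpl or Rps followed by digits, with an optional a, l, x or y suffix, together with Rpsa, Rplp0, Rplp1, Rplp2 and Fau, and without pseudogenes or the Rps6k kinases. This gave 81 genes of the 32245 rows. Of these, 49 encode proteins of the large (60S) subunit and 32 proteins of the small (40S) subunit. All 81 were found in the count table and all 81 passed the filter on low counts. The lowest count of any of them in any library was 26.

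A cytosolic ribosome joins a small subunit, which reads the mRNA, and a large subunit, which forms the peptide bond. Nearly every ribosomal protein is present in a single copy per ribosome, so cells make these proteins in close proportion. In mammals their mRNAs are among the most abundant and shortest, many introns of the genes hold small nucleolar RNAs (snoRNAs, which guide rRNA modification), and most of the mRNAs start with a C followed by a run of pyrimidines, the 5′ terminal oligopyrimidine or TOP motif, through which mTOR signalling controls their translation. Ribosomal protein genes also have many processed pseudogenes and several near-identical functional copies, and how reads shared between such copies were assigned is not given in the sources used here, so all values of these genes carry that uncertainty.

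RNA was sequenced from 3 genotypes of the mouse embryonic stem (ES) cell line E14Tg2a.IV: wild type (WT), a double knockout of Smad2 and Smad3 (S2/3DKO), and a knockout of Smad4 (S4KO). SMAD2 and SMAD3 carry the signal of Nodal, activin and TGF-beta receptors, and SMAD4 is the partner they share with the BMP SMADs. Each genotype was sampled on day 0, as undifferentiated ES cells, and on day 4, as embryoid bodies, the aggregates in which ES cells differentiate once LIF is removed. Each of the 6 groups has 2 libraries, numbered 1 and 2 in the labels. The labels do not say whether the 2 came from separate cultures or how many clones stand for a knockout, so p-values measure only the spread between these libraries, which may be technical.

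Libraries held 31566376 to 55806858 counts. The mitochondrially encoded genes took 1.87 to 3.93% of counts in 11 libraries and 6.74% in S2/3DKO day 0 replicate 2. The counts do not test the genotypes: Smad4 stood at 79.6 and 100.3 CPM (counts scaled to a common library size) in the S4KO day 0 libraries and at 49.6 and 52.3 in WT day 0, and Smad2 and Smad3 were also counted in S2/3DKO, at 37.8 to 48.3 and 13.1 to 31.3 CPM. The summed level of 8 pluripotency genes was 5786 to 5903 CPM in WT day 0, 5187 to 5272 in S4KO day 0 and 2635 to 4945 in S2/3DKO day 0, and it was 911 to 2554 on day 4. Primitive streak genes reached 430 to 492 CPM in WT day 4 and at most 22.8 elsewhere, and 6 trophoblast genes reached 2148 to 2633 CPM in S2/3DKO day 4. On day 0 these trophoblast genes stood at 629 to 1005 CPM in S2/3DKO, 208 to 219 in WT and 72.1 to 115 in S4KO. Summed markers of fibroblasts, the usual feeder cells, were at 6.34 to 29.2 CPM. The part of these markers and of the mitochondrial share in the results on ribosomal protein genes was not tested. In bulk RNA fewer cells of a type and less RNA per cell cannot be told apart.

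Start sites were read first, because the start of the transcript carries the TOP motif. RefSeq start sites on build GRCm38.p6 were matched for 61 of the 81 genes, and each window ran from 250 bases before to 50 bases after the start. A gene with more than 1 start (10 of the 61) was counted if any of its windows matched, here and for the motifs below. A C exactly at the start followed by at least 4 pyrimidines (C or T) was present in 14 of 61 (22.95%) and in 3.01% of 27025 genes with a window. Allowing the C to lie within 2 bases of the start gave 22 of 61 (36.1%) against 10.6%. The following 6 of the 14 with the run exactly at the start were taken for their high FPKM level, with the 15 bases before the start and the 15 from it onward. Capitals mark the run.
Rps18, chr17:33955651-33955680, minus strand: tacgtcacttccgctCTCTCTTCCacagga
Rps27, chr3:90213634-90213663, minus strand: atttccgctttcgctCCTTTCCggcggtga
Rps6, chr4:86857353-86857382, minus strand: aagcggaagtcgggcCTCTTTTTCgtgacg
Rps21, chr2:180257364-180257393, plus strand: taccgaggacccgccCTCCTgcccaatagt
Rps10, chr17:27635230-27635259, minus strand: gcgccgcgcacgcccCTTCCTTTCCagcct
Fau, chr19:6057932-6057961, plus strand: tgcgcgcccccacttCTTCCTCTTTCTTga

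The runs were 5 to 13 bases long, longest in Fau, which encodes small-subunit protein S30 fused to a ubiquitin-like protein. Both restricted paralogs that the results below turn on, Rpl10l and Rpl39l, had no such run at the annotated start and are shown with no capitals. This does not set them apart, since only 14 of the 61 matched genes had the run exactly there.
Rpl10l, chr12:66284387-66284416, minus strand: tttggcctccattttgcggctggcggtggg
Rpl39l, chr16:10170213-10170242, plus strand: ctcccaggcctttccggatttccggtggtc

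Other short motifs were searched on both strands of the same windows. CGGAAG, the core that ETS-family factors such as GABPA bind, was found for 41 of 61 genes (67.2%) against 18.8% of all genes. ATGGCG, the core of the YY1 motif, was in 31.1% against 10.2%, and GGGCGG, a GC box, in 60.7% against 38.2%. CCAAT was in 31.1% against 41.1% and TATAA in 27.9% against 28.0%. The median GC content of the windows was 57% for the 61 genes and 52.7% for all genes, and a match of these letters is a description of the window, not a binding site.

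Levels were compared between genes as FPKM, the number of fragments scaled by transcript length and by library depth. The 5 highest genes by mean over the 12 libraries were Rpl4 (2670 FPKM), Rpl32 (2591), Rpl8 (2427), Rpl13a (2332) and Rps15 (2267). Rpl4 and Rpl8 are core large-subunit proteins, Rpl13a is also known as part of a translation-silencing complex, and Rps15 is a small-subunit protein. Of the 81 genes, 77 lay between 56.9 FPKM (Rpl29) and 2670, with a median of 997. The other 4 are paralogs whose symbols end in l, at 1.34 FPKM (Rpl3l), 43.0 (Rpl39l), 44.2 (Rpl10l) and 445 (Rps27l). Large-subunit genes had a median of 873 FPKM and small-subunit genes 1115. The 29 genes with an annotated snoRNA gene inside had a median of 964, and the 52 without one 975.

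WT day 0 stood apart from the other 5 groups. Ribosomal protein genes took 14.9 and 10.9% of all counts in its 2 libraries. They took 4.89 and 6.12% in WT day 4, 5.93 and 6.45% in S2/3DKO day 0, and 5.68 and 5.18% in S2/3DKO day 4. In S4KO they took 4.91 and 7.75% on day 0 and 6.09 and 6.01% on day 4. Both WT day 0 libraries lay above all 10 others, and the group mean was 12.9% ± 2.83 (SD, n = 2) against group means of 5.43 to 6.33%. As a share of summed FPKM, which weights short transcripts up, the WT day 0 libraries held 28.7 and 22.6% and the others 12.6 to 17.97%. With 2 libraries against 2, no test of a single share was run.

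**Figure D1:**
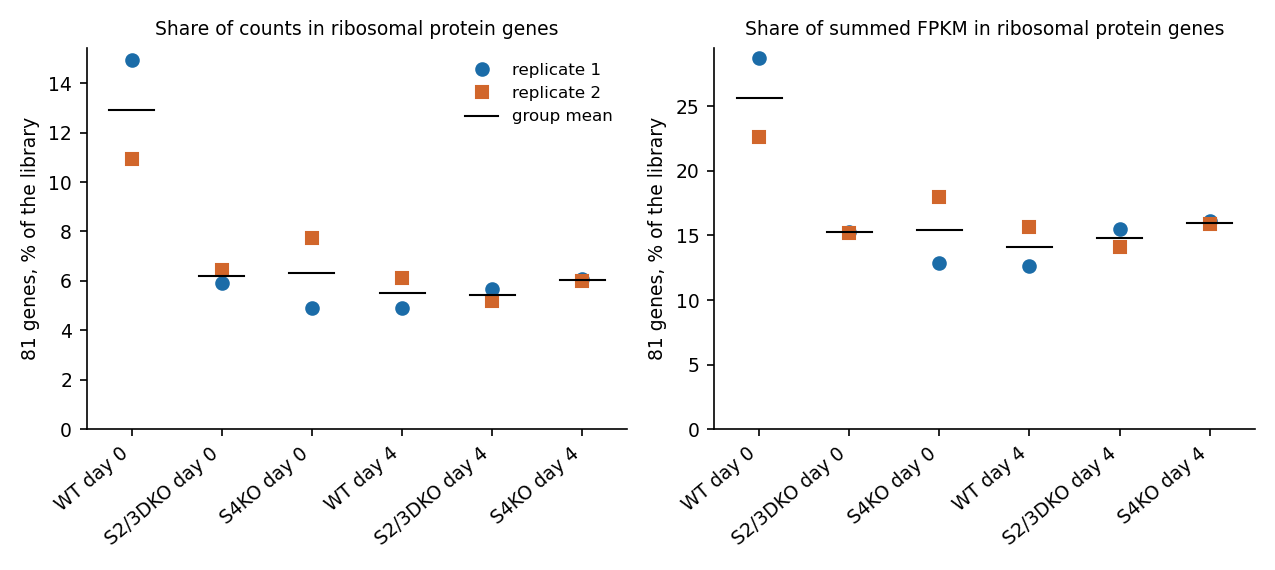
Share of each library taken by the 81 ribosomal protein genes, as % of counts (left) and % of summed FPKM (right). Points are libraries and black lines group means. WT day 0 held 10.9 and 14.9% of counts, above all 10 other libraries (4.89 to 7.75%).

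The higher level in WT day 0 was shared by both subunits and by nearly every gene. The ratio of large-subunit to small-subunit counts was 1.29 to 1.47 over the 12 libraries. Expressed as CPM with TMM library scaling, 78 of 81 genes had both WT day 0 libraries above all 10 others. The same count was not made over all genes tested, so it does not show a trait particular to the set. The other 3, Rpl10, Rpl17 and Rps14, had only replicate 1 above them, and the next highest values of all 3 were in S2/3DKO. The 2 WT day 0 libraries were not equal: replicate 1 was above replicate 2 by a median of 0.61 on the log2 scale, and it was the highest of the 12 libraries for 79 genes.

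S2/3DKO and WT cells of day 0 were compared with edgeR's quasi-likelihood test, fitted to all genes and all 12 libraries. A gene was called at a Benjamini-Hochberg adjusted p below 0.05. Of 81 genes 74 were called lower and 0 higher, where 14.4% of the 18693 genes tested were called lower and 31.0% in either direction. The median log2 fold change was -1.37 (2.58-fold lower), against 0.02 over all genes. Large-subunit genes had a median of -1.37 and small-subunit genes -1.37. The 7 that did not pass were Rpl10, Rpl17, Rpl39, Rpl39l, Rpl5, Rps14 and Rps27a.

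Rpl36, a small protein of the large subunit, had the lowest fold change. It stood at 1719 and 869 CPM in WT day 0 and at 272 and 133 in S2/3DKO day 0, a log2 fold change of -2.68 (SE 0.85, adjusted p = 0.034 by edgeR). Rplp2, an acidic P-stalk protein that recruits elongation factors, fell from 2667 and 1777 to 614 and 319 CPM, by 2.25 on the log2 scale (SE 0.60, adjusted p = 0.017 by edgeR). Its partner Rplp1 fell from 3697 and 2310 to 934 and 503 CPM, by 2.06 (SE 0.67, adjusted p = 0.038 by edgeR). Rpsa, the small-subunit protein also known as the laminin receptor, was at 4500 and 3324 CPM in WT and 1535 and 1564 in S2/3DKO (log2 fold change -1.34, SE 0.29, adjusted p = 0.007 by edgeR). In none of these 4 genes did the groups overlap, and the SE was largest in Rpl36. The share of all genes tested without overlap was not counted, so here and below non-overlap only describes the values of the genes named.

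Other genes of the set with high levels or defined roles fell less far than Rpl36. Rpl4, the highest by FPKM, was at 6743 and 5901 CPM in WT day 0 and 3831 and 3950 in S2/3DKO day 0, a fall of 0.70 on the log2 scale (SE 0.19, adjusted p = 0.019 by edgeR). Rpl32 fell from 3536 and 2182 to 1090 and 1313 CPM, by 1.25 (SE 0.26, adjusted p = 0.0057 by edgeR). Rplp0, the anchor of the P stalk, fell from 3060 and 2428 to 1157 and 972.5 CPM, by 1.37 (SE 0.36, adjusted p = 0.016 by edgeR). Fau fell from 1658 and 973 to 443 and 358 CPM, by 1.72 (SE 0.44, adjusted p = 0.015 by edgeR). The WT and S2/3DKO values of these 4 genes did not overlap either.

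S4KO day 0 cells differed from WT in the same direction. Of 81 genes 69 were called lower and 0 higher (9.14% of all genes tested were called lower, 19.6% in either direction), with a median of -1.25. All 32 small-subunit genes were called and 37 of 49 large-subunit genes. Rplp2 fell to 341 and 815 CPM, by 1.94 on the log2 scale (SE 0.59, adjusted p = 0.042 by edgeR). Rps21, a small-subunit protein with a TOP run at its start, fell from 1362 and 833 to 207 and 392 CPM, by 1.87 (SE 0.42, adjusted p = 0.014 by edgeR). Rps10, also of the small subunit, fell from 1699 and 1259 to 316 and 554 CPM, by 1.77 (SE 0.32, adjusted p = 0.009 by edgeR). Both comparisons share the WT day 0 libraries, so their folds are not independent. The knockouts themselves did not differ by a call on day 0: 0 of 81 genes passed in S4KO against S2/3DKO by edgeR (5.53% of all genes tested), 4 had an unadjusted p below 0.05, DESeq2 called 3 and limma 0.

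Both day 0 counts rest on few libraries. With WT day 0 replicate 1 left out, 14 genes were called lower in S2/3DKO and 0 in S4KO, where calls over all genes tested also dropped, to 1.96% and 0.0464% lower. In S4KO day 0 replicate 1 the genes were lower than in replicate 2 by a median of 0.59 on the log2 scale. When it was left out, 0 of the 81 and 96 of the 19424 genes tested were called in S4KO. Leaving out S2/3DKO day 0 replicate 2 gave 45 calls in S2/3DKO, with 5.91% of all genes called lower. The medians stayed below 0 when any 1 library was left out, at -1.64 to -1.05 in S2/3DKO and -1.58 to -0.89 in S4KO.

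The whole set fell as WT cells differentiated. From day 0 to day 4, 81 of 81 genes were called lower, where 19.9% of all genes tested were called lower and 43.6% in either direction. The median log2 fold change was -1.48 (2.79-fold lower) and the range -3.53 to -0.61. The P-stalk genes followed: Rplp0 fell from 3060 and 2428 to 617 and 1572 CPM, Rplp1 from 3697 and 2310 to 154 and 889, and Rplp2 from 2667 and 1777 to 194 and 744. Rpl36 fell from 1719 and 869 to 37.6 and 316 CPM, by 2.87 on the log2 scale (SE 0.85, adjusted p = 0.019 by edgeR). In these 4 genes both day 4 values lay below both day 0 values, and day 4 replicate 1 lay well below replicate 2. The count of calls was 51 when WT day 0 replicate 1 was dropped (10.04% of all genes lower), 75 to 80 when any other WT library was dropped, and 13 when replicate 1 was dropped on both days (3.95% of all genes lower).

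Few genes of the set were called in the knockouts, no larger a share than that of all genes called lower. In S2/3DKO 2 of 81 were called from day 0 to day 4, both lower (3.46% of all genes tested were called lower, 7.03% in either direction), with a median of -0.27. In S4KO 1 of 81 was called, also lower (3.81% lower and 8.90% in either direction), with a median of -0.11. The direction of these medians depended on the setting: with the implied-length and GC correction described below they were 0.10 in S2/3DKO and 0.20 in S4KO, and in S4KO the median was 0.10 with exon length and 0.11 without S4KO day 0 replicate 2. All 3 calls were restricted paralogs, described below. The difference of the day effects was tested directly. The fall was smaller in S2/3DKO than in WT by a median of 1.23 on the log2 scale, and 5 of 81 genes passed, all in that direction (1.83% of all genes tested, 6.10% in either direction): Rpl13, Rpl14, Rpl35, Rpl38 and Rps28. For S4KO the median was 1.42 and 0 of 81 passed by edgeR (0.150% of all genes tested). Of the 81, 74 had an unadjusted p below 0.05, a count that was not made over all genes. DESeq2 called 51, all higher, where it called 3.19% of all genes higher, and limma called 0. The estimate was above 0 for all 81 genes in the edgeR tests of both knockouts, which share the 4 WT libraries. With the implied-length correction the medians were 0.30 for S2/3DKO and 0.37 for S4KO, and with exon length 0.63 and 0.83. Both counts turned on single libraries. Dropping WT day 4 replicate 2 gave 44 calls for S2/3DKO and 41 for S4KO (9.68% and 5.61% of all genes were then called in that direction), and dropping S4KO day 0 replicate 2 gave 34 for S4KO (1.07%). For S2/3DKO, dropping WT day 0 replicate 2 gave 2 calls and dropping any 1 of the other 6 libraries of the 4 groups gave 0.

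On day 4 few genes were called between genotypes. In S2/3DKO against WT 1 of 81 genes was called, Rpl10, which was higher (7.21% of all genes tested were called higher, 15.2% in either direction), and the median was -0.11. In S4KO against WT 0 of 81 were called by edgeR (1.73% of all genes tested), 3 had an unadjusted p below 0.05, DESeq2 called 2 and limma 0, and the median was 0.12. In S4KO against S2/3DKO 1 was called, Rpl10 again, which was lower in S4KO (6.45% lower and 12.3% in either direction), and the median was 0.24. The 25th and 75th percentiles of the S4KO against S2/3DKO folds were 0.16 and 0.35. Misses of the threshold do not show equal levels: the median SE of a log2 fold change was 0.30 in each of these comparisons.

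**Figure D2:**
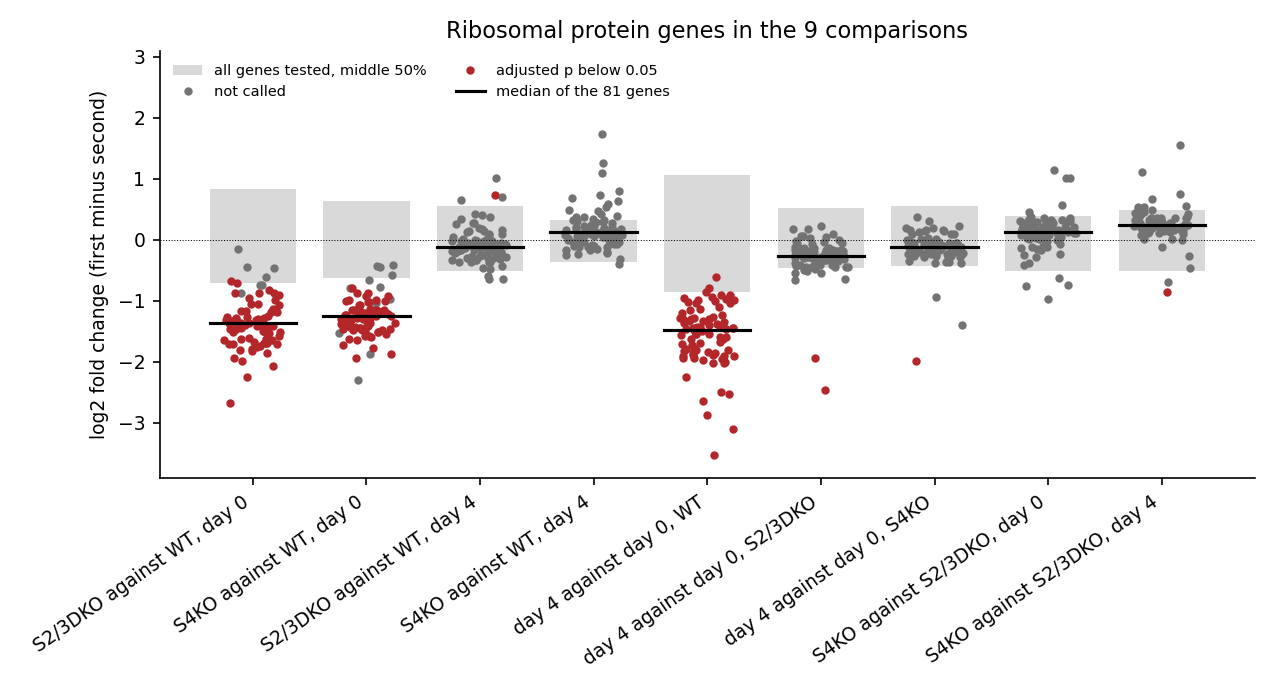
Log2 fold change of each of the 81 genes (points) in the 9 comparisons, red where the adjusted p was below 0.05, with their median (black line) and the middle 50% of all genes tested (grey). The 3 comparisons with WT day 0 as the reference had medians of -1.37, -1.25 and -1.48, and the other 6 lay between -0.27 and 0.24.

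Short transcripts outside the set moved in the same direction. Transcript length was taken as the length implied by the deposited tables (CPM divided by FPKM), whose median was 828 bases for the 81 genes and 2685 for the other tested genes. Among genes outside the set, the WT fold change from day 0 to day 4 had a median of -1.25 under 500 bases, -1.11 from 500 to 1000, -0.60 from 1000 to 2000, 0.11 from 2000 to 4000 and 0.95 above 4000. In S2/3DKO against WT on day 0 the same bins had medians of -0.46, -0.76, -0.51, 0.03 and 0.63, and in S4KO against WT -0.49, -0.79, -0.45, 0.04 and 0.53. On day 4 the bins of S2/3DKO against WT lay between -0.08 and 0.09. Across the genes outside the set, the log2 level in a library against the mean of all libraries correlated with log2 length at -0.51 and -0.45 in the WT day 0 libraries (Pearson r, across genes, which are not replicates) and at -0.22 to 0.28 in the other 10. Whether the length trend was made in the cells or in library preparation was not tested.

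The folds were smaller once length and GC content were taken into account. When a smooth trend with length and GC content was removed from each library (an alternative added after the data were seen), 24 genes were called in S2/3DKO against WT on day 0, 1 of them higher (Rps14), with a median of -0.52, where 10.98% of all genes were called lower. For S4KO 5 were called, Rpl21, Rpl27a, Rps15a, Rps20 and Rps3, all lower, with a median of -0.35. That share of the 81 is near the 5.22% of all genes called lower. For WT day 4 against day 0 13 were called, with a median of -0.22, and the share called lower was below the 16.4% over all genes: Rpl34 and Rps6 were higher, and Rpl10l, Rpl18, Rpl21, Rpl22, Rpl28, Rpl39l, Rpl3l, Rpl5, Rps15a, Rps20 and Rps3 were lower. With the annotated exon length in place of the implied one, 52, 39 and 46 genes were called, all lower, with medians of -0.82, -0.72 and -0.72, where 14.3, 7.72 and 18.6% of all genes were called lower. The median log2 CPM of the 81 genes was 10.35 and 10.87 in the WT day 0 libraries and 8.97 to 9.69 in the other 10 before the correction, and 9.68 and 9.91 against 9.16 to 9.72 after it. After it the WT day 0 range thus overlapped that of S4KO day 4. Since the set is itself short and abundant, such a correction can also take out part of any change of the set.

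GC content added a second axis, seen between replicates. In WT day 4, replicate 1 was below replicate 2 by a median of 0.38 on the log2 scale over the 81 genes, and the ratio ran from -3.07 (Rpl36, 60.8% GC) to 0.86 (Rpl39, 48.7% GC). Across the 81 genes this ratio correlated with GC content at r = -0.62, a description, since all points share the same 2 libraries. The same r was -0.45 in S4KO day 0 and 0.32 in S2/3DKO day 0. It was 0.23 in S2/3DKO day 4, where the ratios ran from -0.09 to 0.87, and -0.05 and 0.05 in WT day 0 and S4KO day 4. WT day 4 replicate 1 held the lowest of the 12 values for 35 of the 81 genes. Rpl36, Rplp1 and Rplp2, with 60.8, 57.3 and 55.0% GC, had SEs of 0.85, 0.68 and 0.60 in WT day 4 against day 0, where the median SE was 0.30. With the implied-length correction their adjusted p in that comparison was 0.15, 0.19 and 0.15 by edgeR, and on day 0 in S2/3DKO against WT it was 0.14, 0.23 and 0.066.

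**Figure D3:**
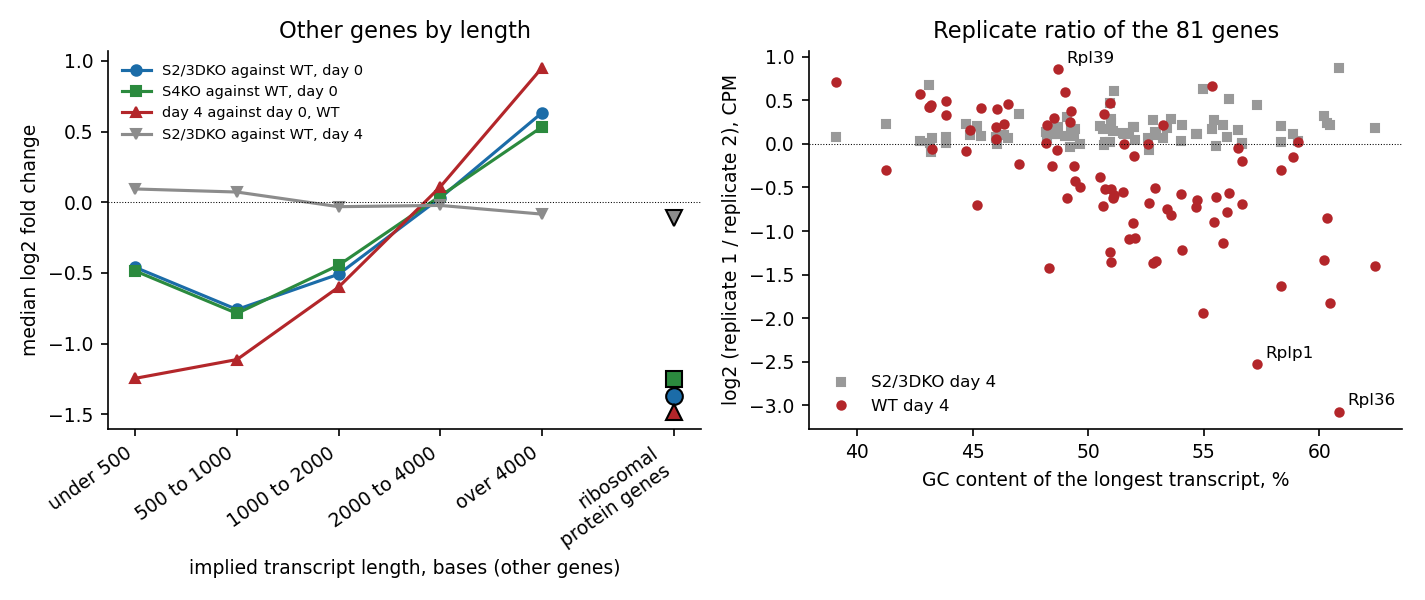
Left, median log2 fold change of genes outside the set by implied transcript length in bases, with the median of the ribosomal protein genes at the right for each comparison. Right, log2 ratio of replicate 1 to replicate 2 of the 81 genes against the GC content of the longest transcript (%), in WT day 4 (red, from -3.07 for Rpl36 to 0.86 for Rpl39) and S2/3DKO day 4 (grey, from -0.09 to 0.87).

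Paralogs of restricted expression are described next. Rpl39l is an autosomal copy of the X-linked Rpl39, a small protein near the exit tunnel of the large subunit, and is known from testis and ES cells. Its WT values were 93.1 and 63.1 CPM on day 0 and 10.4 and 7.82 on day 4. It stood at 53.8 and 48.2 CPM in S2/3DKO day 0 and at 11.4 and 7.13 on day 4. In S4KO it stood at 37.9 and 23.1 CPM on day 0 and at 9.74 and 5.57 on day 4. Every day 0 library lay above every day 4 library. The log2 fold change was -3.095 in WT (SE 0.38, adjusted p = 0.00030), -2.46 in S2/3DKO (SE 0.37, adjusted p = 0.0073) and -1.99 in S4KO (SE 0.37, adjusted p = 0.0097), all by edgeR. The difference of the fall from that of WT was not called in S2/3DKO (0.63, adjusted p = 0.43) or S4KO (1.11, adjusted p = 0.23) by edgeR.

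Rpl39l kept its 3 calls under both length and GC corrections, where it fell by 2.06, 1.98 and 1.72 with the implied length. Leaving out S2/3DKO day 4 replicate 2 gave an adjusted p of 0.10 in S2/3DKO (log2 fold change -2.20), and leaving out S4KO day 4 replicate 2 gave 0.11 in S4KO (-1.66), both by edgeR. Its parent Rpl39 was at 1015 and 550 CPM in WT day 0 and at 280 to 514 in the other 10 libraries. Rpl39 was called from day 0 to day 4 in WT (-0.99, SE 0.34, adjusted p = 0.037 by edgeR) and in neither knockout. That WT change was 0.39 with the implied-length correction and -0.14 with exon length, neither called (adjusted p = 0.26 and 0.71 by edgeR). In FPKM, the WT libraries held 116 and 87.5 of Rpl39l against 1378 and 809 of Rpl39 on day 0, and 13.0 and 12.3 against 836 and 463 on day 4.

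Rpl10l is an intronless autosomal copy of the X-linked Rpl10, which lies near the site where tRNAs enter the ribosome, and it is known for its role in male meiosis. Its WT values were 122 and 97.9 CPM on day 0 and 7.61 and 11.5 on day 4, a fall of 3.53 on the log2 scale (SE 0.51, adjusted p = 0.00055 by edgeR). In S2/3DKO it stood at 56.8 and 25.8 CPM on day 0 and 13.0 and 8.51 on day 4, a fall of 1.94 (SE 0.48, adjusted p = 0.036 by edgeR). In S4KO it stood at 77.8 and 88.1 CPM on day 0 and 46.4 and 16.8 on day 4 (-1.39, SE 0.47, adjusted p = 0.090 by edgeR). The day 0 and day 4 values did not overlap within any genotype. The WT and S2/3DKO calls were also made under both corrections. The S2/3DKO call was lost without S2/3DKO day 0 replicate 1 (-1.28), day 4 replicate 1 (-2.30) or day 4 replicate 2 (-1.70). The S4KO day 4 replicates differed by 1.46 on the log2 scale, the largest replicate ratio of that group in the set.

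The other paralogs ending in l are Rpl3l, which replaces Rpl3 in heart and skeletal muscle, and Rps27l, a p53-responsive copy of Rps27. Rps27l was not restricted here, with a mean of 445 FPKM. In WT, Rpl3l stood at 3.62 and 3.85 CPM on day 0 and at 0.48 and 0.71 on day 4, and it lay at 0.81 to 3.25 in the knockout libraries, and at no more than 2.50 FPKM in any library, against 686 to 1639 FPKM for Rpl3. It fell by 2.65 from day 0 to day 4 in WT (SE 0.50, adjusted p = 0.0019 by edgeR), from very low levels, and not past the threshold in the knockouts. That call had an adjusted p of 0.072 by edgeR when replicate 1 was left out on both days. Rps27l moved like the bulk of the set: 551 and 329 CPM in WT day 0 and 154 to 279 in the other 10 libraries, with a WT fall of 1.29 (SE 0.28, adjusted p = 0.0039 by edgeR). The parents Rpl3 and Rps27 fell by 1.04 (SE 0.23, adjusted p = 0.0047 by edgeR) and 1.54 (SE 0.37, adjusted p = 0.0072 by edgeR) in WT. The change of Rps27 turned to 0.63 with the implied-length correction and 0.22 with exon length, and that of Rps27l was -0.07 and -0.18, with none of these values called. Leaving the 4 paralogs out, the medians of the other 77 genes were -1.48 in WT, -0.27 in S2/3DKO and -0.11 in S4KO from day 0 to day 4.

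**Figure D4:**
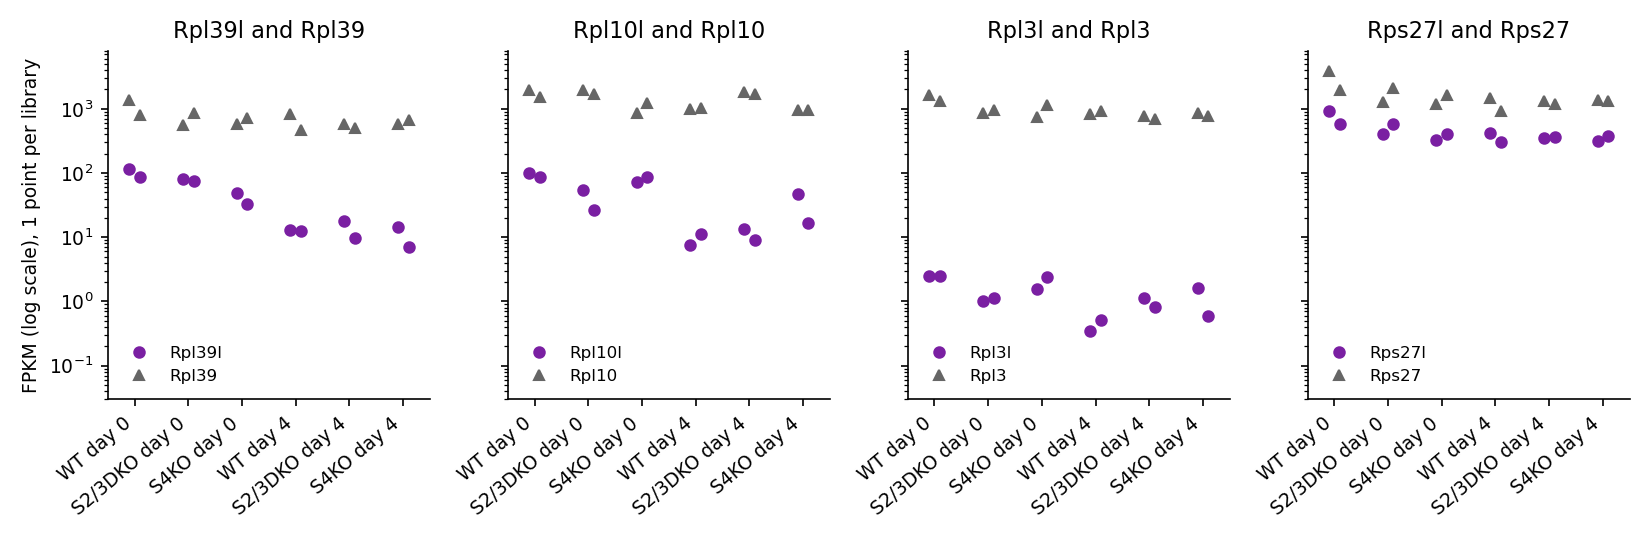
FPKM (log scale, 1 point per library) of Rpl39l, Rpl10l, Rpl3l and Rps27l (circles) with Rpl39, Rpl10, Rpl3 and Rps27 (triangles). Rpl39l fell from 87.5 and 116 FPKM in WT day 0 to 12.3 and 13.0 in WT day 4, while Rpl39 stayed at or above 463 FPKM in all libraries.

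A few genes stood apart from the set in 1 genotype. Apart from Rpl10, those named in this and the next paragraph were chosen after their values were seen. Rpl10 was at 1871 and 1341 CPM in WT day 0 and at 1548 and 1338 in S2/3DKO day 0, so it had the smallest fold of the 81 genes there (-0.15, SE 0.22, adjusted p = 0.62 by edgeR). On day 4 it was at 1351 and 1290 CPM in S2/3DKO, 808 and 779 in WT, and 722 and 741 in S4KO. S2/3DKO lay above both others without overlap: the log2 fold change was 0.74 against WT (SE 0.22, adjusted p = 0.043) and -0.85 for S4KO against S2/3DKO (SE 0.22, adjusted p = 0.027), both by edgeR. Both calls were also made under both corrections (adjusted p of 0.0097 and 0.0046 by edgeR with the implied length). Each was lost when any 1 library of its comparison was left out, with fold changes that stayed between 0.66 and 0.83 and between -0.90 and -0.85.

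Relative to the median ribosomal protein gene of each library, Rpl10 stood on average 1.24 and 1.33 log2 units higher in S2/3DKO on days 0 and 4, and between 0.02 and 0.48 higher in the other 4 groups. Rps14, a small-subunit protein of the platform, stood 1.61 and 1.20 higher in S2/3DKO and 0.23 to 0.73 higher elsewhere. Rpl17, a protein at the tunnel exit, stood at -1.40 and -1.4997 against the median gene in S2/3DKO and at -2.34 to -2.06 elsewhere. Rpl13 of the large subunit stood 0.59 and 0.46 above the median gene in S4KO on days 0 and 4, 0.01 above it in WT day 0 and at -0.55 to -0.38 in the other 3 groups. In edgeR's main test of S4KO against S2/3DKO, the adjusted p was 0.12 and 0.20 for Rps14, 0.20 and 0.28 for Rpl17 and 0.076 and 0.054 for Rpl13 on days 0 and 4.

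Other genes of the same chromosomes were compared as well. Rpl10 lies on X (chrX:74270812-74273135, plus strand, GRCm38), Rps14 and Rpl17 on chromosome 18, and Rpl13 on chromosome 8. Among genes outside the set, the median log2 fold change of S4KO against S2/3DKO was 0.69 and 0.67 on chromosome 8 on days 0 and 4, against 0.02 and 0.05 on all other chromosomes. It was -0.43 and -0.35 on chromosome 18 and -0.30 and -0.11 on X, against 0.05 and 0.08 on the rest. In S2/3DKO against WT on day 4, where Rpl10 was also called, the median on X was -0.01 against -0.08 on the rest, and on day 0 it was 0.57 against -0.02. The part of these chromosome-wide shifts in the levels of these 4 genes was not tested.

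**Figure D5:**
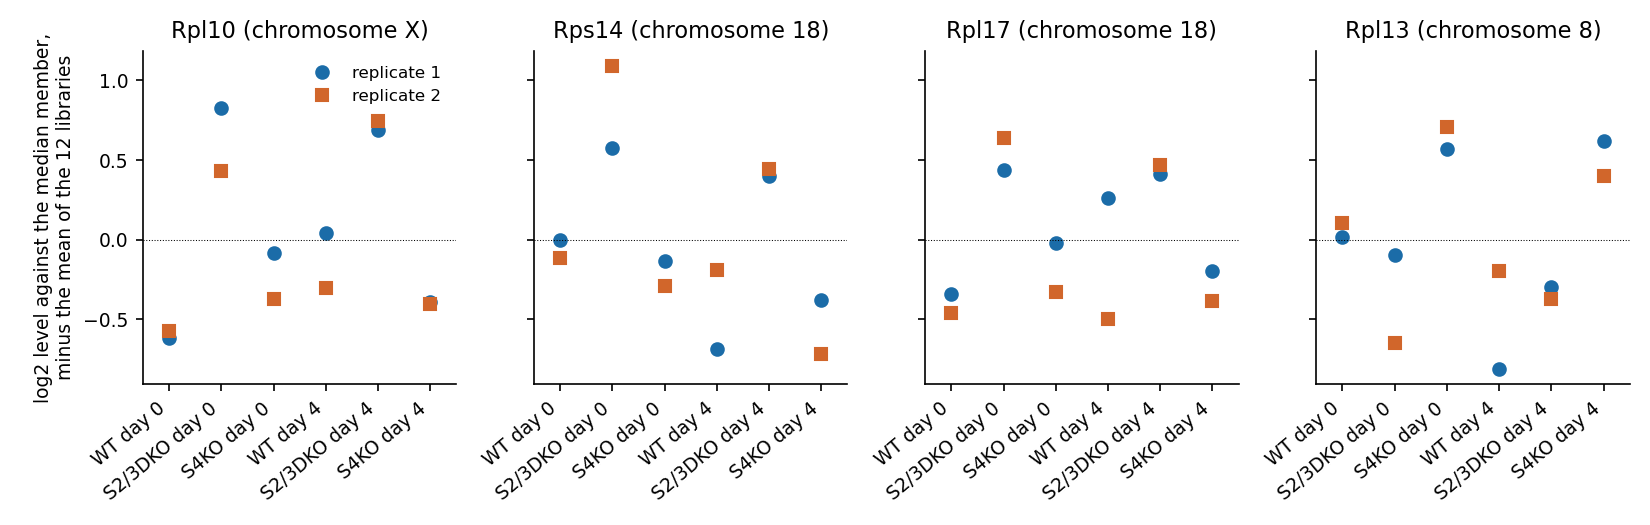
Level of Rpl10, Rps14, Rpl17 and Rpl13 against the median ribosomal protein gene of the same library, log2 scale, minus the mean of the 12 libraries. Points are libraries. Rpl10, Rps14 and Rpl17 had their highest group means in S2/3DKO on both days, and Rpl13 in S4KO.

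Proportions within the set were described over all 81 genes. Rank correlations of log2 FPKM were 0.84 to 0.97 between group means and 0.58 to 0.98 between single libraries (Spearman, a description, since the genes share libraries). Measured against the median gene of each library, the SD of a gene over the 12 libraries had a median of 0.22 log2 units and was under 0.3 for 56 of the 81. Rpl26 was the steadiest (SD 0.089), followed by Rpsa, Rpl10a and Rpl32. The most variable were Rpl10l (1.17), Rpl39l (1.15), Rpl36 (0.96), Rplp1 (0.72), Rpl3l (0.71) and Rplp2 (0.59). GC-rich genes differed in their SD: it was 0.089 for Rpl26 (56.5% GC) and 0.19 for Rpl38 (59.1%), but 0.35 for Fau (60.2%) and 0.47 for Rpl29 (60.5%). These were picked from the set, and the relation of SD to GC content over the 81 genes was not tested. Genes with a snoRNA gene inside and those without had medians of -1.45 and -1.59 in WT from day 0 to day 4. Genes with a TOP run within 2 bases of the start had a median of -1.61 in that comparison (22 genes) and the other matched genes -1.46 (39).

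Genes related to the ribosome but outside the symbol rule were counted as well, of which 1 was picked for display after its values were seen. Rack1, a scaffold on the small subunit, fell from 4772 and 3705 CPM in WT day 0 to 1608 and 2345 in WT day 4 (log2 fold change -1.10, SE 0.25, adjusted p = 0.0050 by edgeR). Of the 7 such genes tested, 6 were called lower in WT from day 0 to day 4 and 0 in either knockout. Over all genes tested, 19.9% were lower in WT, 3.46% in S2/3DKO and 3.81% in S4KO. Over all genes, the 5 whose log2(FPKM + 1) followed the mean of the set most closely over the 12 libraries were Pam16 (Pearson r = 0.988), Anapc11 (0.987), Gm5148 (0.982), Uqcc2 (0.982) and Gm2000 (0.980), of 6492 candidates. All points share library depth and composition, so these are a description.

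Other parts of the translation and energy machinery were counted for comparison, by lists of symbols. In WT from day 0 to day 4, 19.9% of all genes tested were called lower and 23.8% higher. By list, 75 of 79 nuclear oxidative phosphorylation genes were called lower (median -1.69), 67 of 78 mitochondrial ribosomal protein genes (-1.19) and 12 of 21 translation genes with TOP mRNAs (-0.83), none of them higher. The proteasome list had 25 of 38 lower and 1 higher (-0.85). The median implied lengths of these lists were 734, 1265, 1568 and 1530 bases. Of the other lists, 22 of 60 ribosome biogenesis genes (2902 bases) were lower and 0 higher (-0.32), as were 11 of 20 cytosolic tRNA synthetases (2562 bases; -0.77), while of 24 initiation factors (2766 bases) 11 were lower and 4 higher (-0.52). Of 8 CCT chaperonin genes 4 were lower (-0.38), and of 13 snoRNA host genes without a protein (1038 bases) 4 were lower (-0.61). Of 29 mTOR and ribosome quality genes 11 were higher and 6 lower (0.12), and of 8 Myc family genes 3 were higher and 1 lower (0.44). The 6 of 29 mTOR and ribosome quality genes are near the share of all genes called lower.

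Ribosome biogenesis genes were also counted on day 4. In S4KO against S2/3DKO on day 4, 6 of 60 were called higher and 0 lower (median 0.48), where 5.84% of all genes tested were higher. Against WT on day 4, 10 of 60 were lower in S2/3DKO (median -0.51), where 7.998% of all genes were lower. In S4KO against WT on day 4, 0 were called (median -0.06) by edgeR, where 1.73% of all genes were called in either direction. In the same 3 comparisons the ribosomal protein genes had medians of 0.24, -0.11 and 0.12.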

How the data were processed

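RNA libraries (TruSeq RNA Sample Prep Kit v2, a kit that does not mark strand) were sequenced from 12 samples, grouped by genotype and day from their titles, per the labels. The counts deposited by the authors are whole numbers per Ensembl gene ID (32285 rows). The FPKM values deposited by the authors have 1 row per symbol. Per the submitters' processing notes, the build was mm10 and the software included Cufflinks, StringTie and DESeq2, with neither their versions nor their steps. The aligner, annotation and counting are not given in the sources used here. Counts of 1 are rarer than counts of 2 in the table, so a count may not be a tally of single reads. IDs were matched to symbols through GENCODE M21 (32235 with a symbol), and RefSeq windows came from the GRCm38.p6 table.

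Counts were fitted with edgeR 4.0.16 (R 4.3.3; glmQLFit, glmQLFTest, TMM, filterByExpr, 18693 genes, 1 coefficient per group, all 12 libraries), with Benjamini-Hochberg adjustment over all genes. The common biological coefficient of variation was 0.286. SE is the fold change divided by the square root of F. The fit was tested on simulated data. Alternatives were DESeq2 1.42.0, limma 3.58.1 on log2(FPKM + 1) and log2(FPKM + 0.1) with a mean FPKM of at least 1 or no filter, RLE factors, TMM without the set, no filter, 1 CPM in 2 libraries, only the groups compared, a replicate block, each library left out, and spline offsets (5 df) for length and GC content, available for 99.9% of tested genes by exon length and 98.8% by implied length. The implied-length version and the fit without replicate 1 of WT on both days were added after the data were seen.

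Members and lists were chosen with earlier results of these data known. The text names, in each comparison, up to 3 called members with the largest rise and 3 with the largest fall, the 5 highest by FPKM, the paralogs ending in l with their parents, the P-stalk genes, Rpsa and Fau, and says where others were added. Replicates of a group were not copies of each other.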

Additional observations from a re-analysis of the deposited data

Results flagged for a closer look

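The change from day 0 to day 4 differed between S2/3DKO and WT, by edgeR's test of that difference, for 5 ribosomal protein genes, and in each the WT fall was the larger: Rps28 by 1.98 on the log2 scale, Rpl13 by 1.78, Rpl38 by 1.65, Rpl35 by 1.61 and Rpl14 by 1.55. By the same test, 1.83% of all genes tested were called in the direction of these 5, and 6.10% in either direction. Rpl38 was at 1017 and 508 CPM in WT day 0 and at 185 to 315 in the other 10 libraries. Rps28 was at 1414 and 742 CPM in WT day 0 and at 209 to 597 elsewhere. The adjusted p-values were 0.039 to 0.0495, just inside the threshold, and 0 of the 5 passed with either length and GC correction. The difference for Rpl38 turned to -0.36 with the implied length and -0.10 with exon length, and those of the other 4 genes were 0.14 to 0.96 and 0.32 to 1.503.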

How the results depend on the processing

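Counts of called genes moved with the setting, for the set and for all genes. Limma without a filter called 6.75% of all genes lower in S2/3DKO against WT on day 0 and 3.90% in S4KO. In S2/3DKO against WT on day 0 (74 called), limma without a filter called 27, the implied-length correction 24, the fit without replicate 1 of WT on both days 38, and fits with 1 library left out 14 to 70. In S4KO against WT on day 0 (69) the same settings called 12, 5 and 0, the exon-length correction 39, and fits with 1 library left out 0 to 72. In WT day 4 against day 0 (81) the exon-length correction called 46, the implied-length correction 13, the fit without replicate 1 on both days 13, and fits with 1 library left out 51 to 80. All 3 medians stayed below 0 in all 17 alternatives.

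Where few genes were called, small counts changed, and so did the counts over all genes. In S4KO against S2/3DKO on day 4, the fit on only these groups called 4508 of 17428 genes. The exon-length and implied-length corrections called 3930 of 18682 and 3966 of 18466 there. In S2/3DKO against WT on day 4 they called 4456 of 18682 and 4561 of 18466. In these fits the share of the set that was called was below that of all genes. In S2/3DKO against WT on day 4 (1 called), DESeq2 called 2, limma without a filter 0, the exon-length and implied-length corrections 6 and 8, and fits with 1 library left out 0 to 4. In S4KO against WT on day 4 (0), the count fit without a filter and DESeq2 called 2 each, both corrections 1, Rpl13, and fits with 1 library left out 0 to 1. In S2/3DKO day 4 against day 0 (2), limma without a filter and the fit on only these groups called 1, and fits with 1 library left out 0 to 2. In S4KO day 4 against day 0 (1), no filter, DESeq2 and both corrections called 2, the fit on only these groups 0, and fits with 1 library left out 0 to 2. In S4KO against S2/3DKO on day 0 (0), no filter, DESeq2 and the exon-length correction called 3, the implied-length correction 4, and fits with 1 library left out 0 to 1. On day 4 (1), no filter, 1 CPM in 2 libraries and DESeq2 called 3, limma without a filter 0, the fit on only these groups 12, the corrections 8 and 7, and fits with 1 library left out 0 to 1.

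For the difference of the day effect between S2/3DKO and WT (5), RLE factors called 17, TMM without the set 19, no filter 46, 1 CPM in 2 libraries 19, DESeq2 49, limma on log2(FPKM + 1) 9, limma without a filter 0, the fit on only these groups 14, the corrections 2 and 0, the fit without replicate 1 of WT on both days 0, and fits with 1 library left out 0 to 44. Limma with a pseudocount of 0.1 called 7, where 3.30% of all genes were called higher. That share was 2.33% with RLE factors, 2.44% with TMM without the set and 3.79% with no filter. It was 3.31% with 1 CPM in 2 libraries, 5.96% with DESeq2, 3.97% with limma on log2(FPKM + 1) and 2.75% with only these groups. In the S4KO difference it was 1.44% with no filter and 3.19% with DESeq2. For S4KO (0), no filter called 45, DESeq2 51, and fits with 1 library left out 0 to 41. As shares of summed FPKM, the group means were 25.7, 14.1, 15.2, 14.8, 15.4 and 15.99% in WT, S2/3DKO and S4KO, each on day 0 and then day 4, and without mitochondrial genes the S4KO day 4 share of counts was 6.18%.

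With the replicate number as a block, 0 genes were called in S2/3DKO against WT on day 4, 2 in S4KO against S2/3DKO on day 4 and 2 for the S2/3DKO difference of the day effect, and the other counts stayed within 1.5 times. The numbers do not pair the libraries: of 15 pairs of groups 3 had a correlation of replicate differences above 0.1, with a range of -0.24 to 0.52.

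Values of 13 of the single-gene folds changed sign with the implied-length correction. On day 0 against WT these were Rps27 in S2/3DKO (0.20) and Rps15 (0.13), Fau (0.025) and Rps27 (0.038) in S4KO. In WT day 4 against day 0 they were Rps15 (0.10), Rps10 (0.42), Rpl32 (0.20), Rpl39 (0.39), Rpl10 (0.051), Rps14 (0.016), Rpl38 (0.45) and Rps27 (0.63), and for the S2/3DKO difference Rpl38 (-0.36). With the exon-length correction Rpl32 (0.0091), Rpl38 (0.21) and Rps27 (0.22) changed sign in WT day 4 against day 0, and Rpl38 (-0.10) in the S2/3DKO difference. Apart from the settings with fewer libraries or groups, the cause was not tested. The lowest count of a ribosomal protein gene in a library was 26 (Rpl3l). The parts of counting error and of the spread between the 2 libraries of a group in the precision were not tested.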
